A study of Mus musculus with 12 samples.

Results

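The tripartite motif (TRIM) genes encode a family of proteins built from a RING finger, 1 or more B-box zinc fingers and a coiled coil, followed by a C-terminal domain that differs between classes. The RING finger recruits an E2 conjugating enzyme, so most TRIM proteins act as ubiquitin ligases, and the C-terminal domain picks the substrate. Many members are induced by interferon in macrophages and microglia, where they tag sensors, adaptors and viral capsids, and others control transcription, microtubules or cell division. The members described here are all genes whose symbol is Trim followed by a number and at most 1 lower-case letter, listed in any library. There were 50 of them among 14275 listed genes.

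RNA was sequenced from the mouse microglial line BV-2, which is immortalised, with 3 libraries in each of 4 groups. The groups were LPS+NMN, LPS, NMN and Control, where LPS is lipopolysaccharide, an endotoxin of bacterial outer membranes sensed by Toll-like receptors, and NMN is nicotinamide mononucleotide, a precursor of NAD. Doses and times are not given in the sources used here, and no group carries a genetic change in the labels. The series asked which genes differ when NMN is added to LPS, in connection with ferroptosis, an iron-dependent form of cell death. The labels do not say that the 3 libraries of a group were separate cultures, so the p-values rest on a spread between libraries that may be technical only. The labels call the cells macroglia. All 12 microglia and macrophage markers checked were listed, 10 of them in all 12 libraries, whereas Cx3cr1 was listed in 4 libraries and P2ry12 in 2. Of the astrocyte and oligodendrocyte markers reported here, Mbp was listed in 12 libraries, Gfap in 6 and Olig2 in 1, and Aqp4, Aldh1l1, Slc1a3 and Mog were not listed. Mbp, a myelin protein gene, had 3, 4 and 3 events in LPS+NMN, 4, 3 and 4 in LPS, 2, 6 and 4 in NMN, and 5, 8 and 7 in Control. The summed events of the 12 microglia markers were 37 to 42 in LPS+NMN, 39 to 43 in LPS, 36 to 43 in NMN and 38 to 46 in Control. The part of the Mbp difference in the results on TRIM genes was not tested.

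Each library is a catalogue of transcript events, with no read count, expression level or depth. An event is a first or last exon, a skipped exon or run of exons, a retained intron, or an alternative end of an exon. The value given for a gene is its number of distinct events in a library, here called its event number. A listed TRIM gene had at least 2 events, so the smallest step between absence and presence in a catalogue is 0 to 2. An event number is not an expression level, the depth behind it is unknown, and in bulk RNA fewer expressing cells and less RNA per cell cannot be told apart. The libraries listed 11911 to 12246 genes and 50784 to 55787 events. TRIM genes held 154 to 209 events per library.

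A cluster of interferon-linked TRIM paralogues on chromosome 7 had more events in every treated library than in any Control library, while the remaining members together did not separate the groups. This array runs from Trim6 to Trim30d at chr7:104218793-104507849 (GRCm38, GENCODE M21) and holds 10 protein-coding TRIM genes, of which all but Trim6 were listed. It contains Trim12a, Trim12c, Trim30a to Trim30d, Trim34a, Trim34b and Trim5, mouse relatives of the human retroviral restriction factor TRIM5 and of its neighbours. Summed over the 9 listed array genes, event numbers were 26, 29 and 28 in LPS+NMN, 35, 33 and 34 in LPS, 31, 27 and 38 in NMN, and 16, 17 and 10 in Control. Every treated library lay above every Control library. The other 41 members summed to 162, 125 and 147 in LPS+NMN, 136, 135 and 175 in LPS, 165, 179 and 161 in NMN, and 139, 166 and 144 in Control, and these ranges overlapped between each treated group and Control. The array was set apart after its values had been seen, so no test of the sum is given. Several of its genes are close copies, and reads or assembled exons may be shared between them. Among the events of the 9 array genes, 4 end positions were listed under a pair of genes at once, such as a first exon given to both Trim12a and Trim12c. A few events lay inside another gene of the array. Among them were 2 first exons of Trim12a in Trim12c, 2 last exons of Trim12c in Trim5 and 1 last exon of Trim30d in Trim30a.

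**Figure D1:**
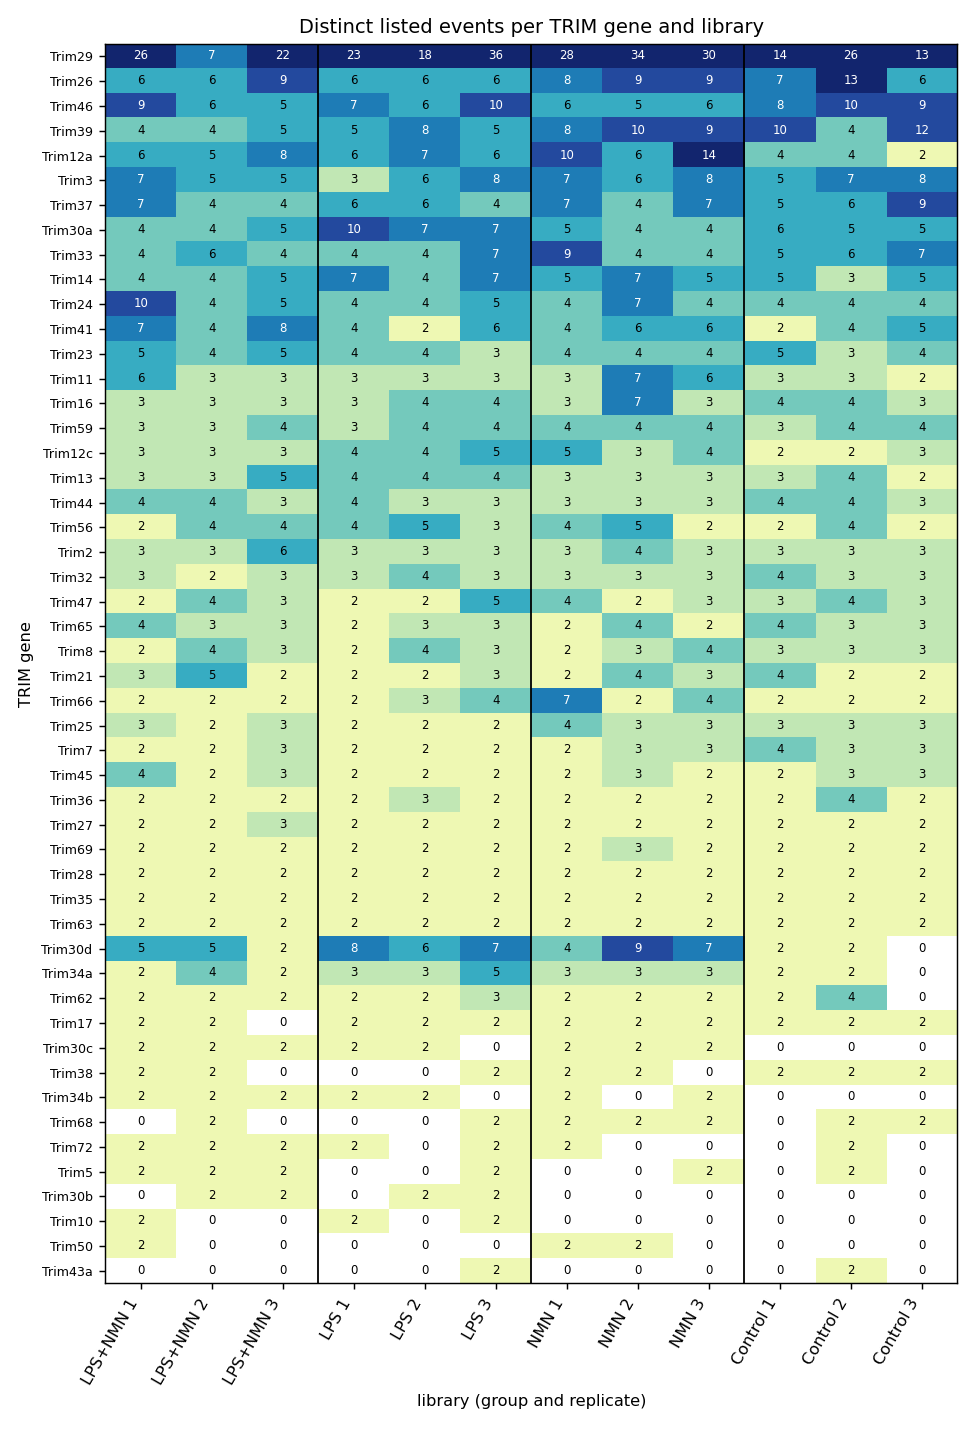
Distinct listed events (number in each cell, darker for more) of the 50 TRIM genes, in rows, in each of the 12 libraries, in columns by group. Trim29 has the most events, up to 36 in 1 library, and the Control columns hold the zeros of Trim30c and Trim34b, which have 2 events in most treated libraries.

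The promoters of the array genes are shown because the array genes had higher event numbers in treated libraries together, and because mouse Trim30a is a known target of Toll-like receptor and interferon signalling. The core of the interferon-stimulated response element, which is GAAA, any 2 bases and GAAA again on either strand (TTTC, any 2 bases and TTTC when read from the other), was searched in the RefSeq promoter windows of 300 bases, 250 before and 50 after the start (GRCm38.p6), counting overlapping matches separately. It was found in 1131 of 32851 windows of all genes (3.44%), and in 1079 of 27025 genes (3.99%). Of the 50 members 38 had a window, and 9 of these held a match: Trim2, Trim5, Trim12a, Trim12c, Trim21, Trim26, Trim30a, Trim30d and Trim34a. In the array, 6 of the 9 listed genes held one, and Trim30b, Trim30c and Trim34b did not. These 6 are not independent. Trim5, Trim12a and Trim12c share nearly all bases around the match, and the Trim30a and Trim30d windows are near copies. A match is a run of letters and not a measured binding site.

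The 150 bases before the start are given 5′ to 3′ for Trim30a (chr7:104465194-104465343, minus strand) and Trim30d (chr7:104507850-104507999, minus strand), with the match in capitals. Lined up on the match, the Trim30a and Trim30d windows were identical at 276 of 295 bases (93.6%).
Trim30a: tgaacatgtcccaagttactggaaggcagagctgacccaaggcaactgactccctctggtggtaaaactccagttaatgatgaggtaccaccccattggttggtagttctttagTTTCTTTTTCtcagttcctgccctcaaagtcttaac
Trim30d: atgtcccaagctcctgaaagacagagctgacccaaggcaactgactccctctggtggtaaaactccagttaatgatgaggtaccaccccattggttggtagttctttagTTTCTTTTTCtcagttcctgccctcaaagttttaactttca
The 30 bases around the match are given for Trim12a (chr7:104315466-104315495, minus strand), Trim12c (chr7:104353359-104353388, minus strand), Trim5 (chr7:104288136-104288165, minus strand), Trim34a (chr7:104244457-104244486, plus strand) and, outside the array, Trim21 (chr7:102565447-102565476, minus strand), whose 2 matches overlap.
Trim12a: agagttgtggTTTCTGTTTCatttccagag
Trim12c: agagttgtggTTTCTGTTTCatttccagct
Trim5: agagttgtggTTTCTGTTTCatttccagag
Trim34a: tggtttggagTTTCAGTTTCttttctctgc
Trim21: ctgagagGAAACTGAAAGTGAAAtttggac

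**Figure D2:**
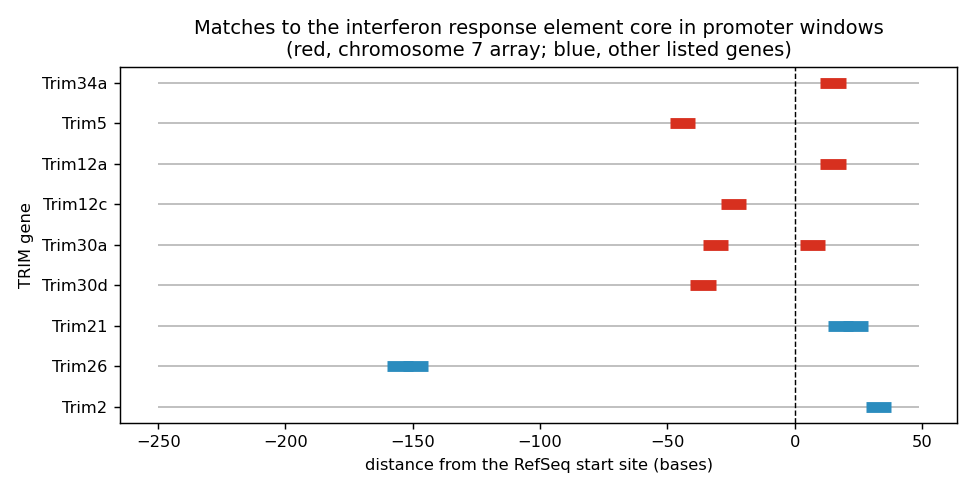
Position of each match to the interferon response element core (coloured blocks, 10 bases wide) in the RefSeq promoter windows of the 9 TRIM genes that hold one, with the distance from the RefSeq start site in bases on the x axis. The match nearest upstream begins at −29 in Trim12c, and that of Trim26 lies farthest away, from −160. Trim30a has a pair of RefSeq starts, drawn on 1 line.

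Trim30a (chr7:104409025-104465193, GRCm38, minus strand), which in mouse is induced through Toll-like receptors and restrains NF-kB signalling, was higher in LPS than in every other group. Its event numbers were 4, 4 and 5 in LPS+NMN, 10, 7 and 7 in LPS, 5, 4 and 4 in NMN, and 6, 5 and 5 in Control. The LPS values overlapped with none of the other 9, while the values of LPS+NMN and NMN overlapped with those of Control at their upper end. On the log2(events + 1) scale, LPS exceeded Control by 0.49 ± 0.18 (SE, limma adjusted p = 0.416 over 11671 genes), and LPS+NMN lay below LPS by a difference of −0.74 ± 0.18 (limma adjusted p = 0.553). Neither passed the threshold of 0.05. From first and last exons alone the LPS difference from Control was 0.21, and that of LPS+NMN from LPS was −0.21.

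The listed events of Trim30a varied between libraries. Of its 20 distinct events, a pair of first exons and 1 last exon were listed in all 12 libraries. A skipped exon of 64 bases, at chr7:104070378-104070441 as the files give it, was listed in all 9 treated libraries and in no Control library. It was the only one of 534 distinct TRIM events with that pattern (0.187%), against 0.0848% of all events in the series. A count of 1 is too small to tell these shares apart. No annotated Trim30a exon has the ends of this skipped exon. Its 64 bases leave a remainder of 1 when divided by 3, so including or skipping it would change the reading frame if the stretch were coding. A further first exon was listed in 1 LPS+NMN library, 3 LPS libraries, 1 NMN library and no Control library. The remaining events were in at most 2 libraries each.

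Trim30d and Trim30c, close paralogues of Trim30a, had higher mean event numbers in each treated group than in Control. Trim30d had 5, 5 and 2 events in LPS+NMN, 8, 6 and 7 in LPS, 4, 9 and 7 in NMN, and 2, 2 and 0 in Control. LPS and NMN did not overlap with Control, and LPS+NMN met Control at 2 events. Trim30d exceeded Control by 1.94 ± 0.43 in LPS (limma adjusted p = 0.14), by 1.82 ± 0.43 in NMN (limma adjusted p = 0.252) and by 1.19 ± 0.43 in LPS+NMN (limma adjusted p = 0.447), in log2(events + 1). From first and last exons alone the LPS difference was 1.16, the NMN difference 0.91 and the LPS+NMN difference 0.67, and the last was also 0.67 without the third Control library, which does not list Trim30d. Trim30c had 2, 2 and 2 events in LPS+NMN, 2, 2 and 0 in LPS, 2, 2 and 2 in NMN, and none in Control, always 1 first and 1 last exon. Its difference from Control was 1.58 ± 0.39 in both LPS+NMN (limma adjusted p = 0.194) and NMN (limma adjusted p = 0.252), and 1.06 ± 0.39 in LPS (limma adjusted p = 0.431), sizes that depend on the pseudocount because Control is at 0. Leaving out the third LPS library, which does not list Trim30c, made all 3 pass the limma threshold, with adjusted p of 0.0137 for LPS+NMN, 0.031 for LPS and 0.0158 for NMN against Control. Trim30c then had the same number in every library of a group, so these p-values rest on the spread borrowed from other genes. It also met the filter through treated libraries alone.

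A pair of Trim30d skipped exons were in every LPS library and in no Control library. One of 476 bases, matching annotated exon 2 of 8, was listed in 2 LPS+NMN, 3 LPS and 2 NMN libraries. The other, of 27 bases, matches exon 6 of 7 (chr7:104472884-104472910, GRCm38, minus strand), lies wholly in coding sequence and keeps the frame. It was listed in 1 LPS+NMN, 3 LPS and 1 NMN library, and is printed because it is the shortest TRIM exon with this all-or-none pattern.
Trim30d exon 6: ggctcatggatgttcagcaatactggg

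Trim12a and Trim12c, both relatives of human TRIM5, had higher mean event numbers in each treated group than in Control. Trim12a had 6, 5 and 8 events in LPS+NMN, 6, 7 and 6 in LPS, 10, 6 and 14 in NMN, and 4, 4 and 2 in Control, so that no treated library overlapped with Control. Against Control the difference was 0.78 ± 0.29 in LPS+NMN (limma adjusted p = 0.469), 0.80 ± 0.29 in LPS (limma adjusted p = 0.423) and 1.31 ± 0.29 in NMN (limma adjusted p = 0.21). From first and last exons alone it was 0.44 in LPS+NMN, 0.53 in LPS and 0.69 in NMN. Without the second NMN library, the lowest of that group, the NMN difference of Trim12a was 1.61 and its adjusted p 0.0445 by limma. In NMN some Trim12a alternative exon ends, a retained intron and a skipped exon were listed at the same positions in exact and approximate form. These forms were counted apart, so the NMN values may hold the same change more than once. Trim12c had 3, 3 and 3 events in LPS+NMN, 4, 4 and 5 in LPS, 5, 3 and 4 in NMN, and 2, 2 and 3 in Control. Its LPS values lay above both LPS+NMN and Control without overlap, with differences of 0.69 ± 0.18 against Control (limma adjusted p = 0.21) and −0.41 ± 0.18 for LPS+NMN against LPS (limma adjusted p = 0.93). However, 2 last exons of Trim12c, each listed in 1 LPS library, lie in Trim5. Without them the LPS values would overlap with LPS+NMN and with Control, and the differences were not recomputed. A first exon of Trim12a was in 3 LPS+NMN, 2 LPS and 3 NMN libraries and in no Control library, and a last exon of Trim12c in 2, 3 and 3 libraries of the same groups and in no Control library.

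Trim34a and Trim34b, relatives of human TRIM34, were not listed in every library. Trim34a had 2, 4 and 2 events in LPS+NMN, 3, 3 and 5 in LPS, 3, 3 and 3 in NMN, and 2, 2 and 0 in Control. Its LPS and NMN values did not overlap with Control, and the LPS difference was 1.14 ± 0.37 (limma adjusted p = 0.363) and the NMN difference 0.94 ± 0.37 (limma adjusted p = 0.596). Without the third Control library, which does not list the gene, the LPS difference was 0.61 and the NMN difference 0.42. Trim34b had 2 events in each LPS+NMN library, 2, 2 and 0 in LPS, 2, 0 and 2 in NMN, and none in Control. Its difference in LPS+NMN was 1.58 ± 0.51 (limma adjusted p = 0.385), again against a Control at 0. The first exon behind it was the same in all 7 libraries that list the gene. Trim30b was listed with 2 events in 2 LPS+NMN and 2 LPS libraries and in no NMN or Control library. Trim5 was listed in 3 LPS+NMN libraries and in 1 library of each other group, always with 2 events.

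**Figure D3:**
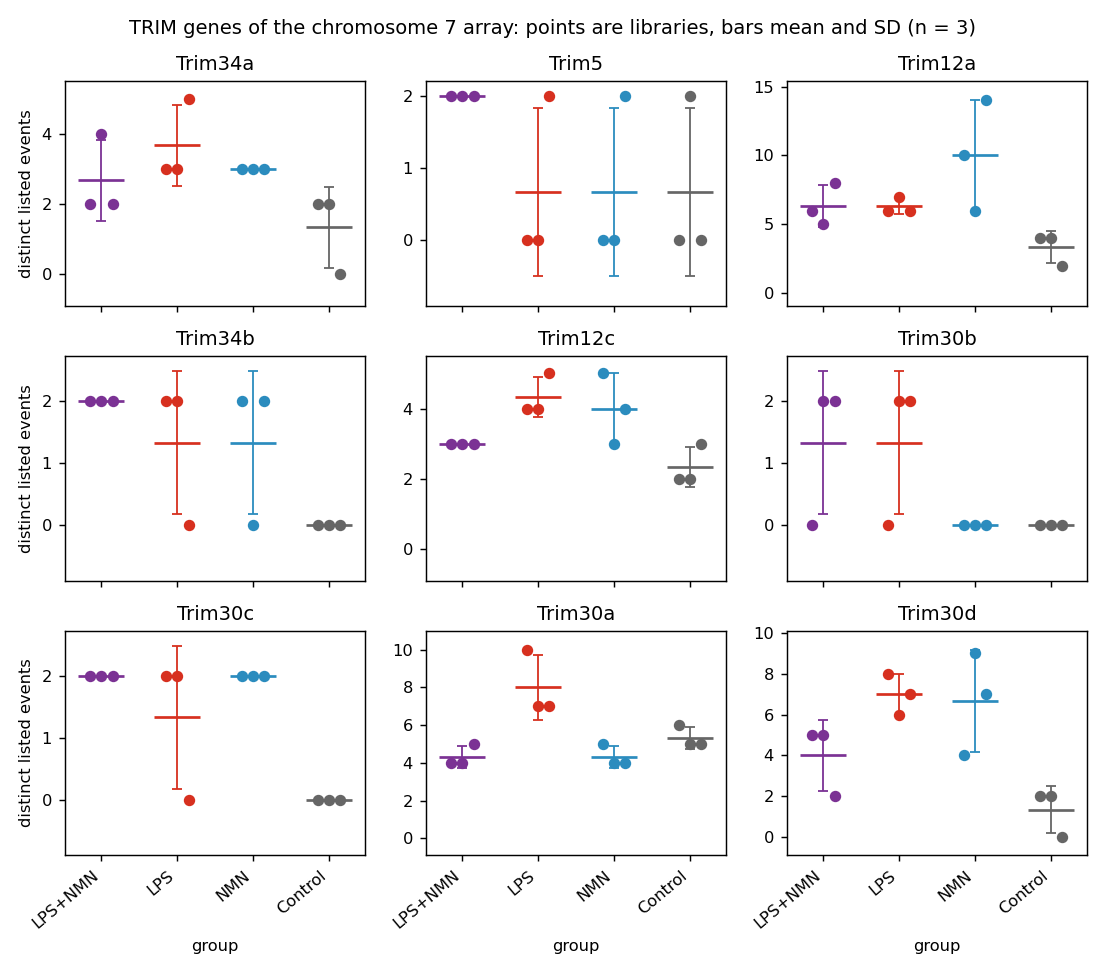
Event numbers of the 9 listed TRIM genes of the chromosome 7 array, with 1 panel a gene, the group on the x axis and the number of distinct events on the y axis (points, libraries; bars, mean and SD, n = 3). Trim30d in Control lies at 2, 2 and 0, below every LPS and NMN library, and Trim30a is highest in LPS at 10, 7 and 7.

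Trim25 (chr11:88999376-89020293, GRCm38, plus strand), the ligase that ubiquitinates the RNA sensor RIG-I, had 3, 2 and 3 events in LPS+NMN, 2, 2 and 2 in LPS, 4, 3 and 3 in NMN, and 3, 3 and 3 in Control. The LPS difference from Control was −0.42 ± 0.15 (limma adjusted p = 0.423), and 0 from first and last exons alone. The libraries differed in a skipped exon of 99 bases, which was listed in 1 LPS+NMN library, in no LPS library, in 3 NMN libraries and in 3 Control libraries. This exon matches coding exon 7 of 9 (chr11:89015533-89015631, GRCm38, plus strand) and keeps the frame. In the third Control library the other Trim25 events, 1 first and 1 last exon, were on the strand opposite to the gene, so that counting the annotated strand alone leaves it 1 event. On that strand Trim25 had 2, 2 and 2 events in LPS and 3, 3 and 1 in Control, which overlap, and the difference was −0.082 (limma adjusted p = 0.993). The sequence of the exon is given because it is the only skipped exon of a TRIM gene listed in every Control library and in no LPS library.
Trim25 exon 7: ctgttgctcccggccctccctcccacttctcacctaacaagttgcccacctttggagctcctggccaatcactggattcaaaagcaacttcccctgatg

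Trim21 (chr7:102557921-102565486, GRCm38, minus strand), a cytosolic antibody receptor that directs antibody-coated particles to the proteasome, had overlapping values in all groups. It had 3, 5 and 2 events in LPS+NMN, 2, 2 and 3 in LPS, 2, 4 and 3 in NMN, and 4, 2 and 2 in Control. The LPS difference from Control had a limma adjusted p of 0.976. The same first and the same last exon were in all 12 libraries, and a skipped exon of 69 bases was in 4 of them, 1 LPS, 2 NMN and 1 Control library.

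Members outside the array with a difference at an unadjusted limma p under 0.05, or with groups that did not overlap, were Trim7, Trim11, Trim25, Trim29, Trim39, Trim46 and Trim66. Trim7, which interacts with glycogenin, was lower under LPS. It had 2, 2 and 3 events in LPS+NMN, 2, 2 and 2 in LPS, 2, 3 and 3 in NMN, and 4, 3 and 3 in Control, with a difference from Control of −0.38 ± 0.17 in LPS+NMN (limma adjusted p = 0.623) and −0.52 ± 0.17 in LPS (limma adjusted p = 0.344). None of its events was a splicing event, meaning a skipped exon, retained intron or alternative exon end, so the difference is in first and last exons alone. Trim11 had 6, 3 and 3 events in LPS+NMN, 3, 3 and 3 in LPS, 3, 7 and 6 in NMN, and 3, 3 and 2 in Control. The NMN difference of Trim11 was 0.74 ± 0.28 (limma adjusted p = 0.556), and 1 of the NMN libraries was level with Control.

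Trim46, which organises parallel microtubules at the axon initial segment, was lower in NMN. It had 9, 6 and 5 events in LPS+NMN, 7, 6 and 10 in LPS, 6, 5 and 6 in NMN, and 8, 10 and 9 in Control, and NMN did not overlap with Control (difference −0.58 ± 0.22, limma adjusted p = 0.564, and −0.088 from first and last exons alone). A retained intron and a pair of alternative exon ends in the same stretch of Trim46, which share their boundaries and are not independent, were each in 1 LPS+NMN, 1 LPS, no NMN and 3 Control libraries. Skipped exons of 38 and 298 bases were listed for this gene in all 12 libraries. Trim39, which stabilises cell cycle regulators by inhibiting the anaphase-promoting complex, had 4, 4 and 5 events in LPS+NMN, 5, 8 and 5 in LPS, 8, 10 and 9 in NMN, and 10, 4 and 12 in Control. Its LPS+NMN values lay below all NMN values (difference −0.91 ± 0.31, limma adjusted p = 0.864), while Control was spread over both. Of its distinct events 7 were on the strand opposite to the gene. On the annotated strand alone Trim39 had 4, 4 and 5 events in LPS+NMN and 5, 10 and 9 in NMN, which meet at 5, and the difference was −0.71.

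Trim66, a member of the TIF1 class of chromatin readers, had 2 events in each LPS+NMN library, 2, 3 and 4 in LPS, 7, 2 and 4 in NMN, and 2 in each Control library. Its NMN difference from Control was 0.72 ± 0.29 (limma adjusted p = 0.628), with 1 NMN library level with Control. It was 0.37 without the first NMN library, 1.08 without the second, 0.14 from first and last exons alone and 1.30 from splicing events alone. Trim29 (chr9:43310848-43336115, GRCm38, plus strand), which has B-boxes but no RING finger and dampens innate responses in macrophages, had by far the most events. It had 26, 7 and 22 events in LPS+NMN, 23, 18 and 36 in LPS, 28, 34 and 30 in NMN, and 14, 26 and 13 in Control. NMN did not overlap with Control or with LPS+NMN. A run of skipped exons of Trim29, listed in approximate form, was in 1 LPS+NMN, 3 LPS, 3 NMN and no Control library, and an approximate skipped exon inside that stretch in 0, 3, 3 and 0 libraries of the same groups. The Trim29 entries made up 12.8% of the 2158 TRIM entries over the 12 libraries and 33.0% of the splicing entries. Of the exon ends in its events, 2 of 22 matched an annotated exon end after 1 shift of position, against 278 of 376 (73.9%) over all members, so its catalogue follows the annotation less closely than those of the other members.

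The remaining members are given by structural class. These had no difference at an unadjusted limma p under 0.05 and no groups without overlap in the comparisons made. In the TIF1 class, Trim24 and Trim33, which bind chromatin and, for Trim33, SMAD proteins, had 4 to 10 and 4 to 9 events a library, and Trim28, the corepressor that silences retrotransposons, had 2 in every library. Among microtubule-binding members with a COS box, Trim63, a muscle ligase, also had 2 in every library, and Trim36 had 2 to 4. In the NHL class, Trim3 had 3 to 8, Trim2 3 to 6 and Trim32 2 to 4 events. A 170-base alternative exon end of Trim3 was in 1 LPS+NMN, no LPS, 2 NMN and 3 Control libraries. Among members with a MATH, ARF or transmembrane domain, Trim37, a peroxisome-associated ligase, had 4 to 9, Trim23 3 to 5, Trim13 2 to 5 and Trim59 3 to 4 events. A coding exon of 183 bases of Trim23 was listed as skipped in 3 LPS+NMN, 1 LPS, 2 NMN and no Control library. Among members without a RING finger, Trim14, an adaptor of antiviral signalling at mitochondria, had 4, 4 and 5 events in LPS+NMN, 7, 4 and 7 in LPS, 5, 7 and 5 in NMN, and 5, 3 and 5 in Control. Its skipped coding exon of 163 bases, which changes the frame, was in no LPS+NMN, 2 LPS, 3 NMN and no Control library. Trim16 and Trim44 of the same class had 3 to 7 and 3 to 4 events. Trim45, the filamin-domain member, had 2 to 4.

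The members in none of these classes include other ligases of innate signalling. Trim26, which degrades nuclear IRF3, had 6, 6 and 9 events in LPS+NMN, 6, 6 and 6 in LPS, 8, 9 and 9 in NMN, and 7, 13 and 6 in Control. One of its first exons was in 2 LPS+NMN, 1 LPS, 3 NMN and no Control library, and one of its last exons in 1 LPS+NMN, 2 LPS, no NMN and 3 Control libraries, so the same gene held events of both directions. Trim38, which limits Toll-like receptor signalling, was listed with 2 events in 8 libraries, and one of its last exons was in 1 LPS+NMN, no LPS, 2 NMN and 3 Control libraries. Trim56, linked to STING and Toll-like receptor signalling, had 2 to 5 events, and Trim8, which acts on SOCS1, had 2 to 4. Trim41 had 2 to 8 events, Trim47 2 to 5, Trim65 2 to 4, Trim27 and Trim69 2 to 3, and Trim35 2 in every library. Trim17, Trim62, Trim68, Trim72 and Trim43a were missing from 1 or more libraries and, where listed, had 2 events, apart from Trim62, with up to 4. Those of Trim17 were on the strand opposite to the gene, apart from 1 event in 1 Control library. In all of these the groups overlapped in each comparison made.

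**Figure D4:**
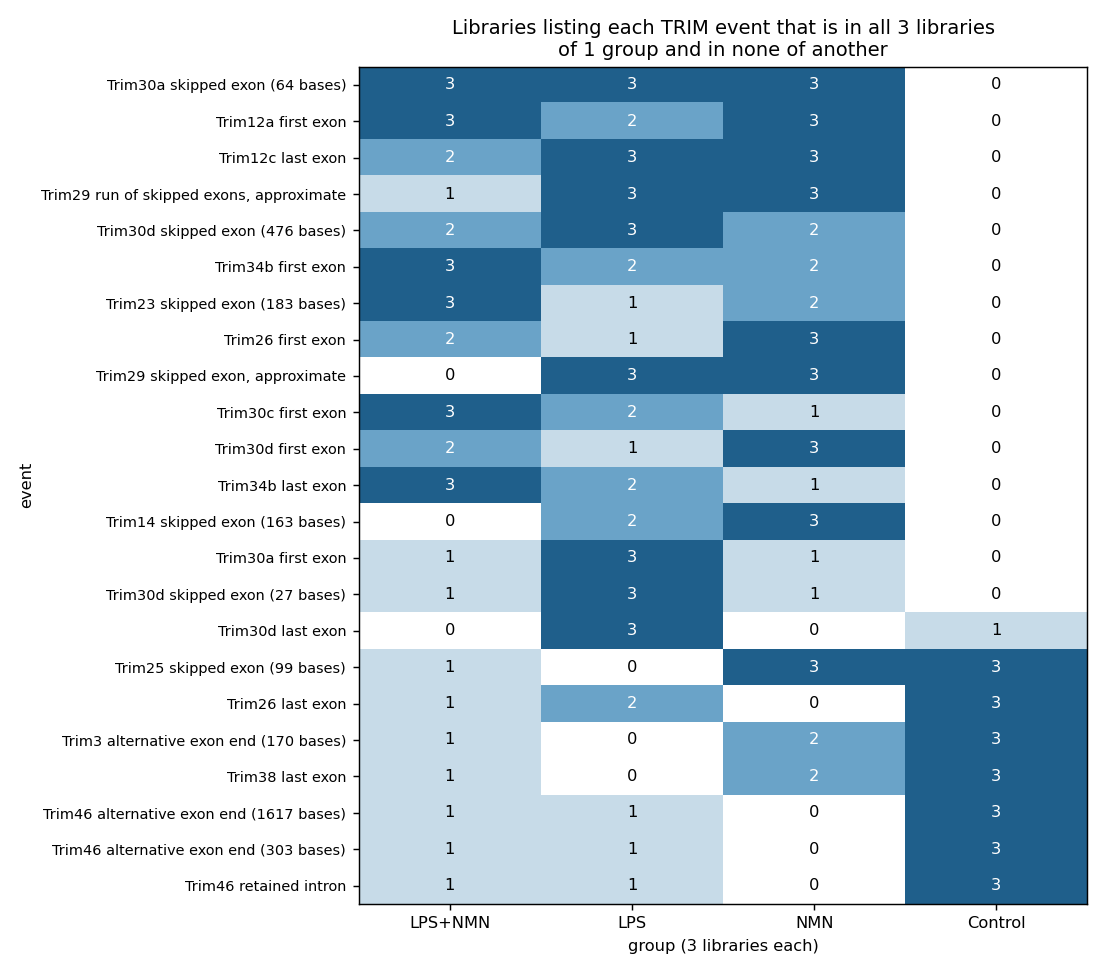
Number of libraries (0 to 3, darker for more) in each group, on the x axis, that list each TRIM event found in all 3 libraries of 1 group and in none of another, on the y axis. The Trim30a skipped exon of 64 bases is the one row with 3 libraries in every treated group and 0 in Control, and the Trim25 skipped exon of 99 bases has 0 in LPS and 3 in Control.

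Tested across all genes, no TRIM gene passed the threshold in any comparison. Of the 50 members 46 could be tested. Trim43a was listed in under 3 libraries, and Trim28, Trim35 and Trim63 had the same number in every library. By limma at an adjusted p under 0.05, 39 of 11671 genes (0.334%) and 0 members were called in LPS+NMN against Control, 35 genes (0.3%) and 0 members in LPS, and 27 genes (0.231%) and 0 members in NMN. The interaction of LPS and NMN called 5 genes (0.0428%) and 0 members. LPS+NMN against LPS and LPS+NMN against NMN called 0 genes each (0%). With shares this low over all genes, 0 calls among 46 members is near the background.

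At an unadjusted limma p under 0.05, array genes made up most of the members that were higher than Control. In LPS against Control 6 members were higher (13%, against 3.57% of all genes), Trim12a, Trim12c, Trim30a, Trim30c, Trim30d and Trim34a, all in the array, and 2 were lower (4.35%, against 3.9%), Trim25 and Trim7. In NMN against Control 7 were higher (15.2%, against 3.48%), 5 of them in the array with Trim11 and Trim66, and 1 was lower (2.17%, against 3.52%). In LPS+NMN against Control 4 were higher (8.7%, against 3.91%), all in the array, and 2 were lower, Trim39 and Trim7 (4.35%, against 3.55%). These 3 comparisons share the Control libraries. Trim30c and Trim34b are listed in no Control library, so they met the filter through treated libraries alone and could not have been lower than Control. LPS+NMN had no higher member against LPS (background 2.5%) and 2 lower ones, Trim12c and Trim30a (4.35%, against 1.96%). Against NMN it had no higher member (background 2.13%) and 2 lower ones, Trim39 and Trim66 (4.35%, against 2.42%). The median log2 difference of the 46 members against Control was 0.0098 in LPS+NMN, 0 in LPS and 0.0907 in NMN, and that of all genes was 0 in each.

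Counted by groups that did not overlap, 5 of 49 members were higher in LPS than in Control (10.2%, against 2.15% of all genes) and 2 lower (4.08%, against 2.3%), Trim7 and, only with both strands counted, Trim25. Of the higher ones, Trim12c separated only with its last exons that lie in Trim5 counted. In NMN 5 of 48 were higher (10.4%, against 1.85%), Trim12a, Trim29, Trim30c, Trim30d and Trim34a, and 1, Trim46, was lower (2.08%, against 2.02%). In LPS+NMN 3 of 50 were higher (6%, against 2.2%), Trim12a, Trim30c and Trim34b, and none lower (background 2.12%). Trim30c and Trim34b, absent from Control, could not have been lower. Between LPS+NMN and LPS, no member was higher (background 1.54%) and 3 were lower (6%, against 1.22%), Trim12c, Trim30a and Trim30d. Trim12c and Trim30d separated here only with last exons counted that lie in another gene of the array, Trim5 and Trim30a. Between LPS+NMN and NMN, none was higher (background 1.32%) and 2 were lower (4.08%, against 1.39%), Trim29 and, only with both strands counted, Trim39. Among single events, 7 of 387 were in every LPS library and no Control library (1.81%, against 0.597%), 8 of 397 in every NMN and no Control library (2.02%, against 0.545%), and 6 of 374 in every LPS+NMN and no Control library (1.6%, against 0.632%). In the other direction the counts were 3 for LPS (0.775%, against 0.613%), 4 for NMN (1.01%, against 0.473%) and 0 for LPS+NMN (background 0.585%). No TRIM event was in every LPS+NMN library and in no LPS library (background 0.408%) or in no NMN library (background 0.321%). The reverse held for 2 of 378 events against LPS (0.529%, against 0.362%) and 2 of 400 against NMN (0.5%, against 0.368%).

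The interaction of LPS and NMN, which asks whether the LPS+NMN level differs from the sum of both single effects, had 6 members below 0 at an unadjusted limma p under 0.05 (13%, against 2.69% of all genes) and none above (background 3.06%). The members were Trim12a, Trim12c, Trim29, Trim30d, Trim34a and Trim66. For Trim30d it was −2.57 ± 0.60 (limma adjusted p = 0.265), for Trim12c −0.99 ± 0.26 (limma adjusted p = 0.353) and for Trim12a −1.33 ± 0.41 (limma adjusted p = 0.551). In each of these 3 genes both single treatments were above Control, and the combination was no higher than either single-treatment mean. The other 3 were −1.41 ± 0.59 for Trim29 (limma adjusted p = 0.819), −1.31 ± 0.53 for Trim34a (limma adjusted p = 0.766) and −1.10 ± 0.41 for Trim66 (limma adjusted p = 0.68).

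Membership of the catalogues was close to that of other genes. Of the 50 members 36 were listed in all 12 libraries (72%, against 76.1% of all genes). The 5 members listed in no Control library (10%, against 9.44%) were Trim10, Trim30b, Trim30c, Trim34b and Trim50, of which 3 are in the array. Trim10 and Trim50, genes known from erythroid cells and stomach, were each listed in 3 treated libraries. Of the 534 distinct TRIM events, 243 were in 1 library alone (45.5%, against 44%) and 55 in all 12 (10.3%, against 16.2%).

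By type, the TRIM catalogue with Trim29 included resembled that of all genes. First exons made up 38.5% of TRIM entries, against 38.1% of all entries. Last exons made up 30.2%, against 28.4%, skipped exons 13.9%, against 14.0%, and alternative exon ends 12.7%, against 14.8%. Trim29 alone held 80 of the 299 skipped exons and 71 of the 273 alternative exon ends. It held 41 of the 831 first exons and 13 of the 651 last exons. Without Trim29 the shares of skipped exons and alternative ends are therefore lower, and those of first and last exons higher. No splicing event was listed for 23 of the 50 members, among them Trim8, Trim28 and Trim59. First and last exons of TRIM genes numbered 125 ± 1.73 in LPS+NMN, 128 ± 10.6 in LPS, 127 ± 5.51 in NMN and 114 ± 8.62 in Control (mean and SD, n = 3 each). Splicing events numbered 47.3 ± 15.8 in LPS+NMN, 54.7 ± 12.9 in LPS, 73.0 ± 6.25 in NMN and 50.3 ± 8.74 in Control. The NMN mean was the highest of the 4 and was not tested apart from the genes. The opposite strand held 27 of the 534 events, in 9 members led by Trim2 with 8 and Trim39 with 7. On its own strand Trim2 had 0 to 2 events a library.

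**Figure D5:**
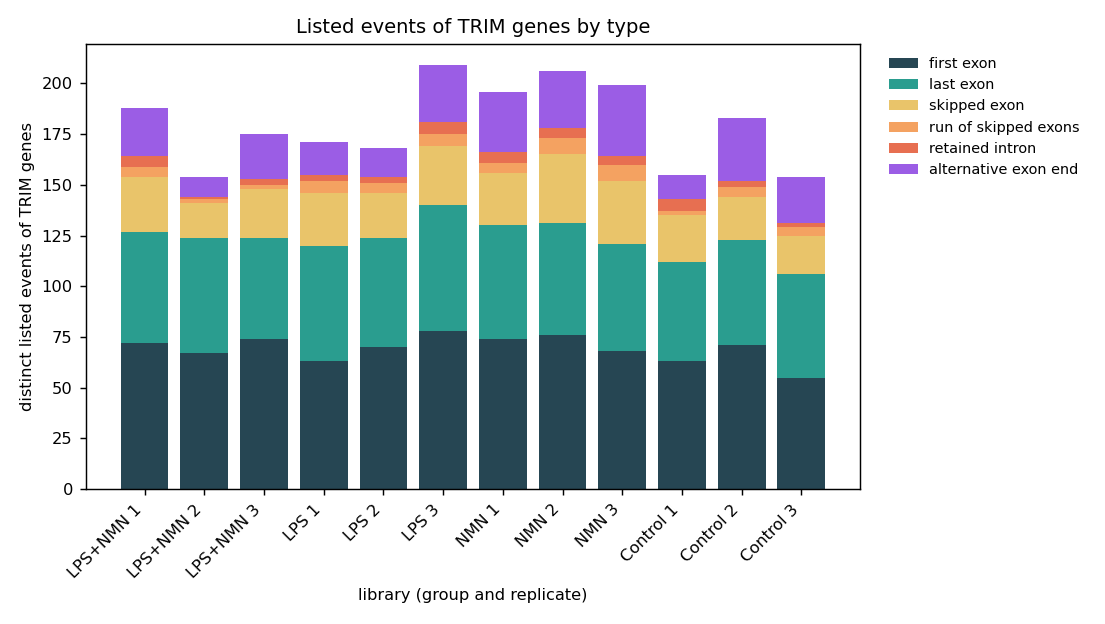
Distinct events of TRIM genes in each library, stacked by type (y axis, number of events, starting at 0; x axis, library by group). Totals run from 154 to 209, and first and last exons make up most of each bar.

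The genes around the TRIM ligases were read from lists. Among 15 tested partners of the RIG-I pathway, which senses viral RNA and signals through MAVS, Irf7 was called and rose in each of the 3 comparisons with Control, and the other 14 did not pass the limma threshold. Irf7, a transcription factor for type I interferon, averaged 16.0 ± 0 events in LPS+NMN, 15.7 ± 0.577 in LPS, 15.7 ± 0.577 in NMN and 7.67 ± 1.15 in Control (SD, n = 3 each). Dhx58, which encodes the RIG-I relative LGP2, averaged 6 ± 1 in LPS+NMN, 6 ± 0 in LPS, 5.67 ± 0.577 in NMN and 3.33 ± 0.577 in Control, without passing the threshold. Traf3, a ligase downstream of MAVS, averaged 5.0 ± 2.0 in LPS+NMN, 5.33 ± 0.577 in LPS, 4.33 ± 0.577 in NMN and 6.67 ± 2.08 in Control, without passing the threshold. Traf6, a related ligase, averaged 6.0 ± 3.46 in LPS+NMN, 5.33 ± 1.15 in LPS, 5.0 ± 1.0 in NMN and 8.33 ± 4.04 in Control. Rnf135, a ligase of RIG-I, averaged 3.0 ± 1.73 in LPS+NMN, 3.33 ± 0.577 in LPS, 2.67 ± 0.577 in NMN and 4.33 ± 1.53 in Control. The Control mean was the highest for all 3 ligases. Their Control libraries had 6, 9 and 5 events for Traf3, 6, 13 and 6 for Traf6, and 4, 6 and 3 for Rnf135. The second Control library held the highest of these values for each gene, and the others overlapped with treated libraries. Ikbke, a kinase of IRF3, averaged 3.33 ± 1.15 in LPS+NMN, 5.33 ± 1.15 in LPS, 7.33 ± 2.52 in NMN and 2.67 ± 1.15 in Control. Ifih1, which encodes the RNA sensor MDA5, had 3 events in each LPS library and 2 in every other library. Ddx58, which encodes RIG-I, averaged 7.33 ± 2.52 in LPS+NMN, 7.67 ± 3.06 in LPS, 6 ± 1 in NMN and 4.67 ± 0.577 in Control. None of 5 tested TRIM proteins with other names, such as Pml, and none of 11 E2 conjugating enzymes was called. At an unadjusted limma p under 0.05, Ube2n, an E2 that builds signalling ubiquitin chains, was lower in each treated group than in Control, with 5.33 ± 0.577 events in LPS+NMN, 5.33 ± 0.577 in LPS, 5.67 ± 1.15 in NMN and 7.67 ± 0.577 in Control. Of the 17 TRIM genes linked to interferon in the literature 16 were listed and tested, none was called, and their median log2 difference from Control was 0.26 in LPS+NMN, 0.48 in LPS and 0.24 in NMN. That of all genes was 0. This list holds the 9 listed array genes, so its medians largely restate the values given above.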

How the data were processed

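BV-2 RNA libraries, 3 in each of 4 groups, were grouped by sample title. Per the file headers, each file deposited by the authors lists transcript events with type, gene, position and strand, and holds no counts or levels. No source used here names the program that wrote them. Per the submitters' processing notes, HOMER, MACS2 2.1.0 and BWA 0.7.12 were used, with the build GRCm38. File positions did not match GRCm38 (2 of 52 exactly skipped TRIM exons lay at a GENCODE M21 exon), so they are printed as given, on an assembly that is not named, and exons were identified by 1 shift of position per gene. Lines for the skipped or spliced partner of an event and 9998 repeats were left out. First and last exons were matched by their inner end, other events by type, start and end, and distinct events per gene and library were counted. An exact and an approximate entry at the same position counted as separate events.

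limma 3.58.1 (R 4.3.3, trend and robust moderation, tested on simulated data) was fitted to log2(events + 1) of 11671 genes with at least 1 event in at least 3 of all 12 libraries, with group means, 8 residual degrees of freedom and Benjamini-Hochberg adjustment over all genes at 0.05. Values per library are given for Trim30a, Trim25, Trim21 and members with an unadjusted p under 0.05 or groups without overlap. Members, lists and promoters were chosen with earlier results of these data known. Alternatives were a pseudocount of 0.5, a minimum of 5 events, no filter, no trend or robust moderation, event classes apart, only the groups compared, a replicate block, each library left out and, chosen after seeing the data, the annotated strand alone. Promoter sequences are from RefSeq (GRCm38.p6), exon sequences from GENCODE M21 transcripts. One marker gene is not reported here.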

Additional observations from a re-analysis of the deposited data

Results flagged for a closer look

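Trim30d was the 1 member whose libraries separated without overlap, and in opposite directions, in NMN set against Control and in LPS+NMN set against LPS. Its event numbers were 4, 9 and 7 in NMN, all above the 2, 2 and 0 in Control, and 5, 5 and 2 in LPS+NMN, all below the 8, 6 and 7 in LPS. A last exon listed for Trim30d that lies in Trim30a was in every LPS library and in no LPS+NMN library. Without it LPS+NMN and LPS would overlap, so that separation depends on it. The interaction was −2.57 ± 0.60 in log2(events + 1), with an adjusted p of 0.265 by limma, which does not pass the threshold of 0.05, and was −1.40 from first and last exons alone. The difference of LPS+NMN from LPS was −0.74 ± 0.43 (limma adjusted p = 0.93). Means of Trim12c, Trim29, Trim34a and Trim66 also differed in opposite directions in these contrasts, with groups that overlapped in 1 or both. These are members with an interaction at an unadjusted limma p under 0.05. Opposite signs were also seen in members without one, such as Trim14 (0.33 and −0.36) and, in reverse, Trim44 (−0.21 and 0.11). Each group holds 3 libraries, and the promoter windows of Trim30d and Trim30a were identical at 276 of 295 bases.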

How the results depend on the processing

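The 47 TRIM gene values did not reverse and kept their side of the threshold in 920 of 936 recomputations under 21 alternatives. A difference of 0 was counted as not reversed, so a direction that was lost is not seen in this count. The values were picked from these same data by an unadjusted limma p under 0.05, or belong to Trim30a, Trim25 or Trim21. Many alternatives leave out only 1 library, so a high count was likely from the start. Leaving out 1 library let 1 TRIM gene pass the threshold, and the number called ranged from 0 to 1 in each comparison with Control: Trim30c in all 3 without the third LPS library, and Trim12a in NMN without the second NMN library. Without the third LPS library Trim30c did not vary within any group. Small differences of Trim21 crossed 0 when 1 library was left out: they ran from −0.25 to 0.14 in LPS, −0.038 to 0.38 in NMN and −0.038 to 0.47 in LPS+NMN against Control, from −0.18 to 0.32 in LPS+NMN against NMN and from −0.069 to 0.43 for the interaction. From splicing events alone the last 2 were −0.14 each. Trim25 in LPS+NMN against Control reversed to 0.14 from first and last exons alone and to 0.20 on the annotated strand alone, and its interaction to −0.16 on that strand. The cause was not tested. The numbers of all genes called were 3 (LPS), 3 (NMN) and 10 (LPS+NMN) against Control and 1 (interaction) with at least 5 events in 3 libraries. They were 3, 2, 8 and 0 from splicing events alone, with 1 for LPS+NMN against LPS. Fitted on only the groups compared, which leaves fewer degrees of freedom, they were 1 (LPS), 1 (NMN) and 3 (LPS+NMN) against Control. Without trend and robust moderation they were 6 for LPS+NMN against LPS, 6 against NMN and 39 for the interaction. LPS+NMN against LPS called 3 genes with a pseudocount of 0.5 and 1 on the annotated strand alone. With 1 library left out the counts ran from 32 to 55 in LPS, 27 to 44 in NMN and 32 to 55 in LPS+NMN against Control, from 0 to 11 in LPS+NMN against LPS and from 4 to 6 for the interaction.

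Same-numbered libraries did not deviate together: over 15 pairs the correlation of deviations ran from −0.0271 to 0.022, with none over 0.1. No pairing by number was thus detected in the event numbers, which cannot show whether same-numbered cultures were handled together. With the replicate block 33 genes were called in LPS and 26 in NMN against Control, and 0 TRIM genes. The files give no depth, so a gene at 0 events cannot be told apart from one covered by too few reads.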
